A study of Mus musculus with 4 samples.

Results

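Smooth muscle cells were sought among stromal cells sorted from the mouse small intestine by the genes they expressed. A 10X Genomics cell was kept where at least 1 unique molecular identifier (UMI, 1 tag per captured RNA molecule) of Acta2 was detected, where at least 3 of the 7 genes Cnn1, Hhip, Actg2, Lmod1, Actc1, Myocd and Frem2 were detected, and where Sox6 was at 0. This gate held 224 of 16891 cells in the 10X libraries, 44 of 2547 cells in library 1 (1.73%, exact 95% interval 1.26% to 2.31%) and 180 of 14344 cells in library 2 (1.25%, 1.08% to 1.45%). The intervals cover counting error only. The gated cells were compared with 2896 subepithelial cells, the fibroblasts beneath the epithelium, defined as cells with both Sox6 and Pdgfra detected (278 and 2618 cells), and with all other 10X cells (2225 and 11546 cells).

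Both libraries came from the small intestine of wild type, male C57Bl/6 mice, labelled as 8 weeks old, with no transgene and no treatment. After Liberase TL digestion, live cells with gp38 (PDPN, a surface protein used as a broad fibroblast marker) and without CD45, EpCAM or CD31 were captured, so muscle cells entered only as far as they passed a gate set for fibroblasts. How many mice gave each library is not stated. The p-values rest only on how differences between cell groups varied over these 2 libraries. The variance of each gene was moderated towards a trend over all genes. They do not measure a spread between mice. The 2 libraries shared 7 cell barcodes. The median depth was 9614.5 and 7132.5 UMIs per gated cell in libraries 1 and 2, against 11178.5 and 8366.5 in subepithelial cells and 8334 and 6472.5 in all other cells.

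Smooth muscle contracts when myosin, phosphorylated by myosin light chain kinase after calcium entry, pulls on filaments of smooth muscle actin. Serum response factor and its partner myocardin (Myocd) switch the contractile genes on by binding CArG boxes in their promoters. In the intestine such cells form the outer muscle layers, the thin muscularis mucosae and strands that run up the villus core, while subepithelial myofibroblasts also carry Acta2 without being smooth muscle.

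The genes that the gate reads include 3 actins (Acta2, Actg2 and Actc1), the actin-binding proteins calponin (Cnn1) and leiomodin (Lmod1), myocardin, the hedgehog-binding protein Hhip and the matrix protein Frem2. On the GRCm38 build, with GENCODE M21 gene models, Acta2 spans chr19:34241090-34255590, Actg2 chr6:83512905-83536265, Actc1 chr2:114047282-114053548 and Cnn1 chr9:22099216-22109630. Lmod1 spans chr1:135324807-135368065, Myocd chr11:65176561-65269989, Hhip chr8:79965851-80058006 and Frem2 chr3:53513938-53657355. All 8 are annotated as protein-coding genes.

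Promoters were searched for the CArG box because contractile genes were higher together in the gated cells than in all other cells, as given further on. RefSeq promoter windows on GRCm38.p6 matched 6 of the 8 muscle genes of the gate and 27 of 32 genes of a list of contractile genes. In the 250 bases before a RefSeq gene start, the consensus CArG box, whose pattern reads the same on both strands, was found in 1 of the 6 gate genes (Actc1) and in 5 of the 27 contractile genes (18.5%; Cnn2, Fbxl22, Filip1l, Myl9 and Vcl). Among all 27025 genes with such a window it was found in 439 (1.62%). A list of regulators held it in a like share, 2 of 14 genes (14.3%; Fhl2 and Lmcd1), and the 5 other lists in 0% to 4.76%. The windows of Actc1 and of 4 of the contractile genes with a box follow, written 5′ to 3′ up to the gene start, with the box in capitals. These 4 were higher than in subepithelial cells in the strictly gated cells described below. With the gate as set they were called higher than in all other cells but not than in subepithelial cells. Fbxl22 was called in neither comparison. The box began 47 bases before the start in Actc1 (chr2:114052876-114053125, minus strand, a RefSeq start that lies inside the longer GENCODE span above), 161 in Myl9 (chr2:156775214-156775463, plus), 56 in Cnn2 (chr10:79988350-79988599, plus), 62 in Filip1l (chr16:57548992-57549241, plus) and 227 in Vcl (chr14:20929148-20929397, plus). A match is a description of the letters and not a bound site.
Actc1: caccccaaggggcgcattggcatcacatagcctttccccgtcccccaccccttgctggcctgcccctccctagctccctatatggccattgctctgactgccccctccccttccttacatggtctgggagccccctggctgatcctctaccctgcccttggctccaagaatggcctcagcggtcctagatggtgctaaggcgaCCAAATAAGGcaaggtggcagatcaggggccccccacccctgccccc
Myl9: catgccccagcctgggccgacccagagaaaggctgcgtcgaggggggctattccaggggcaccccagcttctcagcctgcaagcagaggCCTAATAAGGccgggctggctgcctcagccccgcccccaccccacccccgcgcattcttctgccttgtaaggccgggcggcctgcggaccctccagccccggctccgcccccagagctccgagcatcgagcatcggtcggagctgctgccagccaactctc
Cnn2: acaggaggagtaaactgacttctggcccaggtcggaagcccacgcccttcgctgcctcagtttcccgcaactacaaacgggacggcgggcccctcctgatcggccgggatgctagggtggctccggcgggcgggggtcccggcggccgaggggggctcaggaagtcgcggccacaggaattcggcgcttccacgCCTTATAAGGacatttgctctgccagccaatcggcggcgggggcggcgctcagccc
Filip1l: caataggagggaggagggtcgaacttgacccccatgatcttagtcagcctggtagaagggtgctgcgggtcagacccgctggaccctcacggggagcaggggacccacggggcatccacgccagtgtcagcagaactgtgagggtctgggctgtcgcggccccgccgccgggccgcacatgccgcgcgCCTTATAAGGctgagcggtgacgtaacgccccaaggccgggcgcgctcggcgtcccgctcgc
Vcl: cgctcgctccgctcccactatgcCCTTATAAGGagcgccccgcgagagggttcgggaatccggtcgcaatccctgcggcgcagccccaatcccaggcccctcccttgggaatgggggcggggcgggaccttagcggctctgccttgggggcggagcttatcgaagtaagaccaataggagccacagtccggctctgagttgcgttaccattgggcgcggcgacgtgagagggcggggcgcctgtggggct

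What the gate selected is given as a description, without a test, since these values chose the cells. Hhip was detected in 88.6% and 82.8% of the gated cells of libraries 1 and 2, Lmod1 in 75.0% and 84.4%, Actg2 in 72.7% and 78.3%, Myocd in 63.6% and 62.8%, and Frem2 in 63.6% and 63.3%. Cnn1 was detected in 29.5% and 46.1%, and Actc1, the cardiac actin, in 6.82% and 22.8%. The libraries were alike for Myocd and Frem2, and library 2 was the higher for Cnn1 and Actc1. In subepithelial cells the 7 markers were detected in 0% to 3.60% of cells in library 1 and in 0.0764% to 7.03% in library 2. After thinning each cell to 2000 UMIs, which left out 0 and 6 gated cells, 4.55% to 47.7% and 14.9% to 56.9% of gated cells still held a UMI of a given marker, against 0% to 1.08% and 0% to 2.39% of subepithelial cells. Library 2 also held 41 cells with Ptprc, the gene of the leukocyte antigen CD45, and no Pdgfra (median 4234 UMIs), which should lack muscle genes. Of Acta2 and each of the 7 markers they held 0 UMIs, which allows up to 7.32% of such cells to hold a UMI and sets no limit on cells that express the gene.

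**Figure D1:**
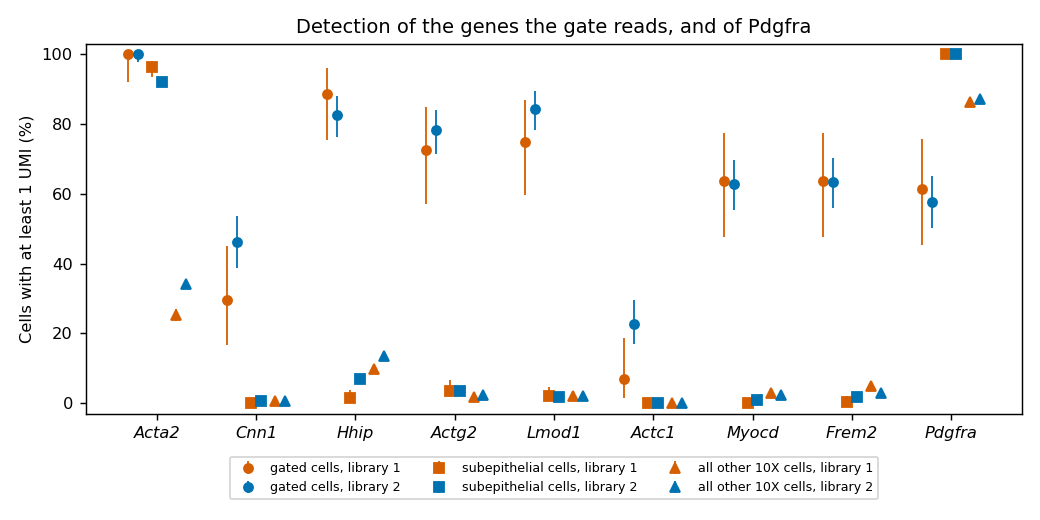
Percent of cells with at least 1 UMI of each gene, for gated, subepithelial and all other 10X cells, with exact 95% binomial intervals (counting error only). Colours mark the 2 libraries. Acta2 was shared with subepithelial cells, whereas the 7 markers that the gate counts were at or below 13.6% in both comparison groups.

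Acta2 was shared with subepithelial cells. Its mean level, in UMIs per 10000 UMIs of a cell, was 40.0 and 55.6 in gated cells, 26.4 and 23.1 in subepithelial cells and 1.70 and 1.95 in all other cells. The median gated cell stood at 20.9 in library 1 and 38.7 in library 2, and the median subepithelial cell at 22.5 and 18.1, so that the medians lay close together in library 1 and the gated median was the higher in library 2. The cells just outside the gate, with Acta2 and exactly 2 markers and Sox6 at 0, numbered 41 and 224 and held 9.98 and 8.24 UMIs of Acta2 per 10000. Another 1 and 21 cells had Acta2 and 3 or more markers but also Sox6, and 1 and 4 cells had 3 or more markers without Acta2.

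The gated cells were not of 1 kind. In library 1, 19 cells held 3 markers, 15 held 4, 4 held 5 and 6 held 6 or 7, and in library 2 these numbers were 67, 36, 32 and 45. Most cells near the threshold still carried Pdgfra, the receptor gene that marks fibroblasts of this sort. A Pdgfra UMI was found in 14 of 19 cells with 3 markers in library 1 (73.7%) and in 53 of 67 in library 2 (79.1%), but in 0 of 6 and 13 of 45 (28.9%) with 6 or 7 markers. With 4 markers the shares were 60.0% and 63.9%, and with 5 they were 100% (4 of 4 cells) and 46.9%. Over the whole gate a Pdgfra UMI was present in 61.4% and 57.8% of cells, against 86.3% and 87.1% of all other cells, and after thinning in 31.8% and 29.3% against 52.9% and 60.8%. Depth did not rise with the marker number in library 2, where the median was 7610, 6940, 6654 and 6618 UMIs for 3, 4, 5 and 6 or 7 markers. In library 1 it was 9648, 10747, 10391 and 8332.

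Contractile genes that the gate did not read followed the same order. Myh11, the smooth muscle myosin heavy chain, was at 7.44, 21.4, 30.5 and 44.7 UMIs per 10000 in library 2 cells with 3, 4, 5 and 6 or 7 markers, and at 4.01, 12.3, 4.82 and 55.4 in library 1. Tagln, an actin-binding protein of smooth muscle, was at 11.3, 23.7, 47.7 and 70.2 in library 2, and at 10.5, 31.0, 22.7 and 77.2 in library 1. Des, the muscle intermediate filament desmin, was at 1.86, 2.72, 7.85 and 11.9 in library 2, and at 0.88, 1.45, 0.21 and 12.5 in library 1. The 6 cells of library 1 with 6 or 7 markers therefore matched those of library 2 in level, while its 4 cells with 5 markers stood near those with 3 or 4.

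Col1a2, Igfbp5 and Sfrp1 ran the other way. Of these, Igfbp5 was higher in gated than in all other cells, as given further on, so its fall is no loss of a fibroblast marker. Col1a2, a chain of type I collagen, was at 31.2, 27.5, 17.8 and 15.1 UMIs per 10000 over the same 4 steps in library 2, and at 31.1, 29.8, 35.97 and 19.9 in library 1. Igfbp5, a secreted binding protein of insulin-like growth factors, was at 36.03, 28.8, 17.4 and 7.03 in library 2, and at 36.6, 29.1, 22.3 and 2.21 in library 1. Sfrp1, a secreted Wnt antagonist, was at 21.0, 12.95, 12.8 and 9.08 in library 2, and at 20.9, 17.2, 17.1 and 6.62 in library 1. Col3a1 did not follow in library 1, with 74.2 at 6 or 7 markers and 47.6 at 3. Cells at the threshold thus carried transcripts of muscle genes and of the fibroblast genes Pdgfra and Col1a2 together. The gate itself reads the marker number, and the markers were drawn from clusters of these same cells. These steps therefore describe single cells and are no independent evidence for the label smooth muscle. No doublet caller was run, and the part of doublets in this overlap was not tested.

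**Figure D2:**
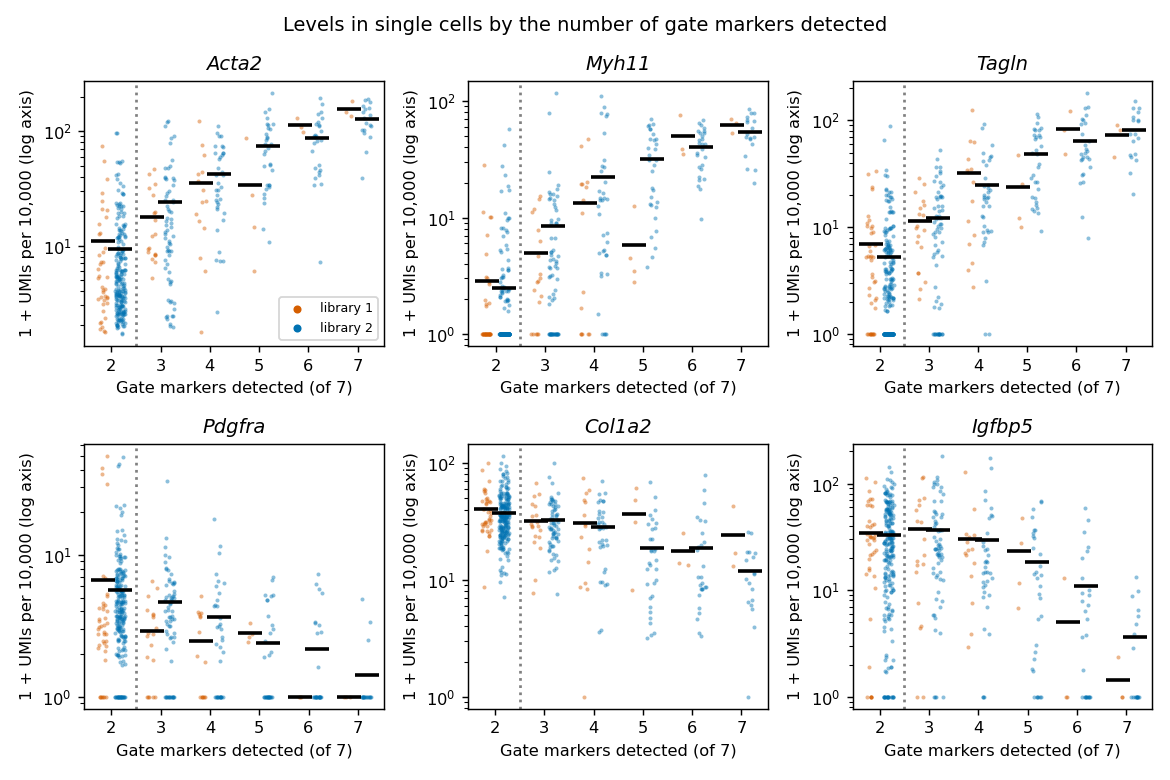
Level of 6 genes in single cells (1 + UMIs per 10000, log axis) by the number of the 7 gate markers detected, for cells with Acta2 and with Sox6 at 0. Each point is 1 cell, colours mark the libraries, black bars are means, and the dotted line is the threshold of the gate. Acta2, Myh11 and Tagln stood higher and Pdgfra, Col1a2 and Igfbp5 lower in cells with 6 or 7 markers than in cells with 3.

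Across gated cells, levels of Acta2 ran with those of 3 other contractile genes. Spearman's rho between Acta2 and Myh11 was 0.77 over 44 cells in library 1 and 0.86 over 180 cells in library 2, and between Acta2 and Tagln it was 0.90 and 0.88. Between Acta2 and Des it was weaker, at 0.38 and 0.58. Between Myh11 and Pdgfra it was −0.38 and −0.63, and between Myh11 and Col1a2 −0.58 and −0.60. Between Myh11 and Col3a1 it was weaker, at −0.20 and −0.38. These are descriptions of cells that share a library and that were chosen in part on Acta2, and values of 1 cell share its total.

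To compare the gated cells with the other stroma, the mean natural log value, ln(1 + UMIs per 10000), of each group in each library was tested with limma, leaving out the genes that define the groups. Against subepithelial cells, 725 of 1719 genes passed an adjusted p of 0.05 (42.2%), 252 of them higher in gated cells (14.7%) and 473 lower (27.5%). Against all other cells, 450 of 1597 passed (28.2%), 210 higher (13.1%) and 240 lower (15.0%). A gene was tested if detected in at least 5% of the cells of either group, and genes that passed only through 1 group were, where called, higher in that group. Against subepithelial cells 132 of the 1719 genes passed only through the gated cells (70 called higher) and 233 only through the subepithelial cells (150 called lower in gated cells). Of the 1354 that passed in both groups 13.4% were higher and 23.9% lower. Against all other cells 159 and 111 passed through 1 group (67 higher, 56 lower), and of the 1327 that passed in both 10.8% were higher and 13.9% lower. Counts of the lists after the contractile genes are therefore given over genes that passed in both groups, a choice made after the data were seen. The markers of the gate were drawn from clusters of these same cells, and the subepithelial cells were chosen by Sox6 and Pdgfra, so these calls describe the groups and are no independent evidence of a cell type. Both comparisons use the same gated cells. Of 1544 genes tested in both, 115 were higher and 38 lower in gated cells in both comparisons, and 47 were called with opposite signs.

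Contractile genes separated the gated cells from all other cells, a group that leaves out the subepithelial cells. Relative to all other cells 31 of 32 contractile genes were higher and 0 lower by limma (32 and 0 at an unadjusted p of 0.05), where 13.1% of all genes were higher, and the median difference of the list was 0.68 on the natural log scale against −0.0012 for all genes tested. Over the 30 detected in at least 5% of both groups 29 were higher, where 10.8% of all such genes were. Tpm1, a tropomyosin that lies along the actin filament, was at 16.6 and 20.3 UMIs per 10000 in gated cells, 9.33 and 8.09 in subepithelial cells and 3.54 and 3.48 in all other cells. Its difference was 1.47 ± 0.06 (SD, n = 2 libraries) from all other cells (limma, adjusted p = 0.0027) and 0.60 ± 0.17 from subepithelial cells (limma, adjusted p = 0.013). Gated cells were highest in both libraries. Myh11 was at 13.9 and 23.7 in gated cells, 4.53 and 3.80 in subepithelial cells and 0.165 and 0.232 in all others, a difference of 2.05 ± 0.45 from all others (limma, adjusted p = 0.0027). The exception, Fbxl22, was detected in gated cells mainly in library 2 and was not called (0.42 ± 0.48, limma, adjusted p = 0.095).

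Against subepithelial cells, which carry Acta2 and Tagln themselves, fewer contractile genes were higher. With the gate as set, 12 of 32 were higher, 2 were lower and 18 were not called, where 14.7% of all genes were higher and 27.5% lower. Pcp4l1 alone of the 32 passed the filter only through the gated cells. Myh11 was higher by 0.79 ± 0.60 (limma, adjusted p = 0.024, with 8.0e-04 to 0.12 over 10 alternatives), and the differences of the 2 libraries were 0.36 and 1.21. That call was lost without the mean trend and without the filter on low values. Tagln was not called (0.27 ± 0.35, limma, adjusted p = 0.21), nor were Mylk, the kinase of the myosin light chain (0.18 ± 0.39, adjusted p = 0.40), or Myl9, the light chain itself (0.04 ± 0.45, adjusted p = 0.86). Cald1, caldesmon, was lower in gated cells (9.46 and 10.2 against 22.5 and 16.7 UMIs per 10000, a difference of −0.72 ± 0.29, limma, adjusted p = 0.013), and it was higher than in all other cells (0.65 ± 0.01, limma, adjusted p = 0.027). In the cells with at least 5 of 7 markers (10 in library 1 and 77 in library 2), a stricter gate chosen after the data were seen, 25 of 32 contractile genes were higher than in subepithelial cells and 0 were lower by limma (27 and 0 at an unadjusted p of 0.05), where 11.7% of all genes were higher and 24.5% lower. In that fit Myh11 differed by 1.93 (limma, adjusted p = 0.0019), Tagln by 1.24 and Myl9 by 0.99, while Cald1 was no longer called (−0.31, adjusted p = 0.16, the highest over the alternatives to the gate as set, of which the lowest was 0.0081). With only the 17 and 76 gated cells in which Pdgfra was at 0, 21 of 32 were higher and 0 lower by limma (23 and 0 unadjusted), where 11.4% of all genes were higher and 27.1% lower.

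**Figure D3:**
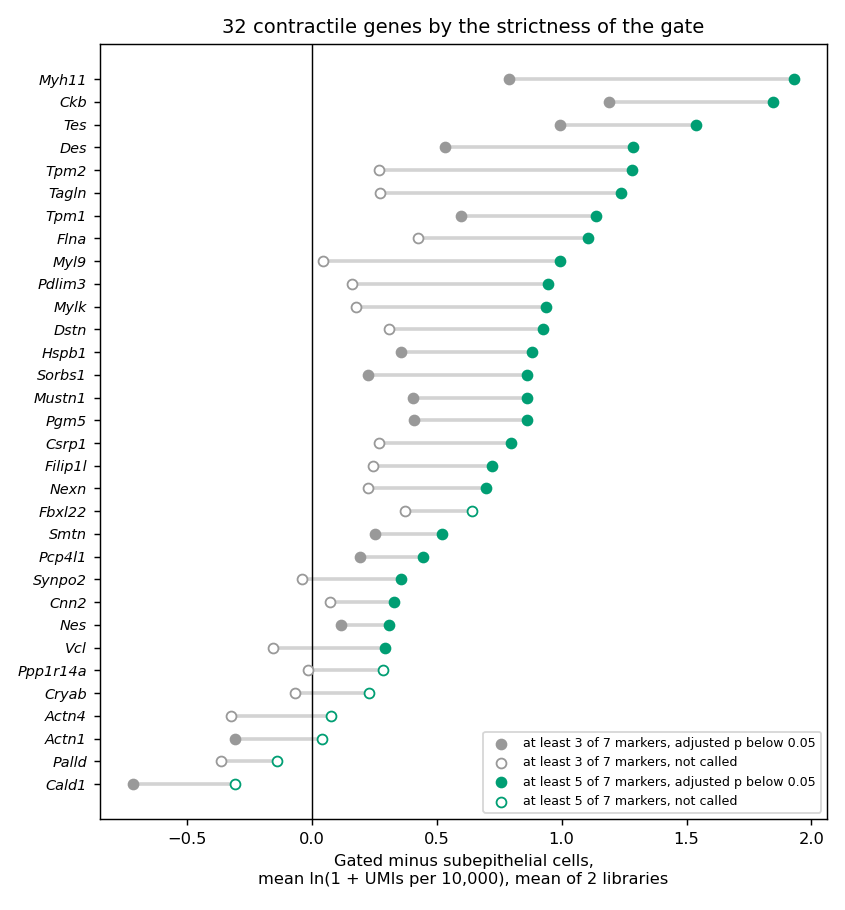
Difference between gated and subepithelial cells for 32 contractile genes (mean natural log value, mean of 2 libraries), with at least 3 markers (grey) and with at least 5 (green). Filled points passed limma at an adjusted p of 0.05. The number higher went from 12 to 25 of 32 with the stricter gate, and Cald1 stood lowest under both.

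With the gate as set, the members of the contractile list that differed most from subepithelial cells were Ckb and Tes, and with at least 5 markers Myh11 (1.93) was above Ckb (1.85) and Tes (1.54). Ckb, the brain-type creatine kinase that regenerates ATP, was at 6.91 and 10.0 UMIs per 10000 in gated cells, 1.28 and 1.19 in subepithelial cells and 1.91 and 1.84 in all other cells. It was 5.38-fold and 8.40-fold higher than in subepithelial cells (1.19 ± 0.19 on the natural log scale, limma, adjusted p = 7.2e-04). Tes, testin, an actin-associated protein of focal adhesions, was at 3.55 and 5.42 against 0.496 and 0.558 in subepithelial cells and 0.439 and 0.368 in all others (0.99 ± 0.22 and 1.06 ± 0.25, limma, adjusted p = 8.6e-04 and 0.0027). Both genes were higher in each library, and Ckb was detected in 97.7% and 88.9% of gated cells.

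Regulator genes differed in both directions, among them those of the Id proteins, which block basic helix-loop-helix factors. Of the 25 in the files 17 passed in both gated and subepithelial cells, of which 5 were higher and 9 lower, where 13.4% of all such genes were higher and 23.9% lower. The number lower was smaller under stricter gates, with 3 of 17 lower at 5 or more markers (20.5% of all such genes) and 4 of 17 with Pdgfra at 0 (22.0%). Relative to all other cells 10 of 18 were higher and 2 lower, where 10.8% and 13.9% of all such genes were. The list's median differences were −0.13 and 0.18. Id1 was at 0.288 and 0.185 UMIs per 10000 in gated cells and at 1.86 and 1.84 in subepithelial cells (−0.58 ± 0.01, limma, adjusted p = 5.1e-04), close to the 0.189 and 0.295 of all other cells. Id3 was at 3.31 and 3.34 against 8.07 and 7.36 in subepithelial cells (−0.72 ± 0.02, limma, adjusted p = 0.0023). Id4 went the other way, with 1.06 and 2.65 against 0.188 and 0.253 (0.55 ± 0.26, limma, adjusted p = 0.0052), and was also above all other cells (0.54 ± 0.25, adjusted p = 0.00997). Id2 was lower as well, with 1.22 and 0.723 against 1.94 and 2.06 (−0.32 ± 0.07, limma, adjusted p = 0.0044), but not called with at least 4 or at least 5 markers. Sox4 lay between both groups, with 1.80 and 2.34 UMIs per 10000 against 3.62 and 3.49 in subepithelial cells and 1.16 and 1.05 in all others (−0.49 ± 0.16, limma, adjusted p = 0.0049, and 0.35 ± 0.11, adjusted p = 0.025), and it was not called against subepithelial cells with 5 markers (−0.07, adjusted p = 0.53, with 0.0026 to 0.53 over the alternatives). Nr4a1, an early response gene, was not called in either comparison (0.49 ± 0.55 and −0.31 ± 0.32, limma, adjusted p = 0.078 and 0.27). Carmn, a long noncoding RNA of smooth muscle that was no named gene by rule and was chosen after its values were seen, was at 2.26 and 2.17 against 1.78 and 1.33 in subepithelial cells (0.18 ± 0.06, limma, adjusted p = 0.048) and 0.582 and 0.507 in all others (0.60, adjusted p = 0.0027).

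Ion channels and calcium-handling genes often passed the filter through only 1 of the groups compared (6 of 12 and 6 of 10 tested). Of the 16 in the files 6 passed in both gated and subepithelial cells, of which 1 was higher (Kcnk3) and 1 lower (Casq2), where 13.4% of all such genes were higher and 23.9% lower. Genes that passed through 1 group are given by their levels, without a test. Abcc9 and Kcnj8, the regulatory and pore subunits of an ATP-sensitive potassium channel, were low in gated and in all other cells alike and high in subepithelial cells. Abcc9 was at 0 and 0.122 UMIs per 10000 in gated cells, 3.68 and 3.58 in subepithelial cells and 0.164 and 0.252 in all others. Kcnj8 was at 0.0329 and 0.0176, 2.48 and 1.86, and 0.0889 and 0.106 in the same groups. Kcnk3, a leak potassium channel, was at 1.41 and 1.39 in gated cells against 0.246 and 0.254 in subepithelial cells (0.36 ± 0.04, limma, adjusted p = 7.6e-04). Kcnh2, a voltage-gated potassium channel of the ERG type, was detected in 29.5% and 29.4% of gated cells, 2.52% and 1.64% of subepithelial cells and 3.82% and 3.78% of all others. Kcnk3 was detected in 3.46% and 3.25% of all other cells. Casq2, the calcium-binding calsequestrin of the sarcoplasmic reticulum, lay between the groups with 0.533 and 0.810, against 1.62 and 1.86 in subepithelial cells (−0.47 ± 0.02, limma, adjusted p = 6.8e-04) and 0.0243 and 0.0738 in all others. With 5 markers its difference from subepithelial cells was −0.12 (adjusted p = 0.18, with 2.7e-04 to 0.18 over the alternatives).

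Among receptors of vasoactive signals, both endothelin receptors were lower in gated than in subepithelial cells. Of the 25 receptor and signalling genes in the files 16 passed in both gated and subepithelial cells, of which 6 were higher and 5 lower, where 13.4% of all such genes were higher and 23.9% lower. Relative to all other cells 7 of 17 were higher and 1 lower, where 10.8% and 13.9% of all such genes were. The list's median differences were −0.02 and 0.17. Ednrb and Ednra, the endothelin receptors, were at 0.271 and 0.929 and at 0.283 and 0.426 UMIs per 10000 in gated cells. Subepithelial cells held 7.002 and 8.24 of Ednrb (difference −1.23, with −1.23 and −1.24 in the libraries, limma, adjusted p = 3.9e-04) and 4.14 and 4.43 of Ednra (−1.21 ± 0.05, adjusted p = 3.9e-04). Neither receptor was called against all other cells (0.19 ± 0.08 and 0.07, limma, adjusted p = 0.058 and 0.40). Ednrb was called higher than in all other cells with at least 5 markers (0.44, adjusted p = 0.010), and likewise with at least 4, with Pdgfra at 0 and without the cells of greatest depth (0.010 to 0.17 over 10 alternatives). Gucy1b1, a subunit of the nitric oxide receptor guanylate cyclase, was lower than in subepithelial cells (0.948 and 1.09 against 2.37 and 2.72, a difference of −0.56, limma, adjusted p = 0.0011). Agt, angiotensinogen, the precursor of angiotensin, was at 2.61 and 3.63 in gated cells, above the 0.901 and 0.854 of subepithelial cells (0.51 ± 0.09, limma, adjusted p = 0.0011) and the 0.393 and 0.290 of all others (0.77 ± 0.10, adjusted p = 0.0026). Rgs5, a damper of G protein signals, was at 25.0 and 20.6 against 2.68 and 4.13 in subepithelial cells (1.79 ± 0.17, limma, adjusted p = 5.1e-04), but all other cells held 14.5 and 18.8 (0.39 ± 0.22, adjusted p = 0.081). Rgs5 was high in the fibroblasts of this sort as well, and in cells with 6 or 7 markers it was at 3.82 in library 1 (6 cells) and at 18.7 in library 2 (45 cells). With at least 5 markers its difference from all other cells was −0.23.

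Hedgehog ligands come from the gut epithelium, and Ptch1 and Hhip, which bind them, are also targets of the signal. The gate reads Hhip, so its level is a description only, with 8.94 and 13.05 UMIs per 10000 in gated cells, 0.0316 and 0.179 in subepithelial cells and 0.284 and 0.393 in all others. It stood at 2.96 and 4.42 with 3 markers and at 46.9 and 27.5 with 6 or 7. Gas1, a co-receptor of hedgehog, was at 2.12 and 3.31 in gated cells against 0.0818 and 0.259 in subepithelial cells (0.74 ± 0.14, limma, adjusted p = 9.5e-04) and 1.24 and 1.36 in all others (0.34 ± 0.20, 0.20 and 0.47 in the libraries, adjusted p = 0.022). The call against all others was lost without the mean trend and without the filter (adjusted p of 0.0014 to 0.096 over the alternatives). Ptch1 was at 6.24 and 6.42, near the 6.03 and 6.30 of subepithelial cells (0.0029, limma, adjusted p = 0.98) and above the 2.38 and 2.13 of all others (0.88 ± 0.03, adjusted p = 0.0033). Within the gate Ptch1 stood at 4.61 and 4.91 with 3 markers and at 15.8 and 8.34 with 6 or 7. With at least 5 markers its difference from subepithelial cells was 0.40 and not called (limma, adjusted p = 0.064, with 0.064 to 0.98 over the alternatives). Across gated cells, rho between Hhip and Gas1 was 0.49 and 0.40, and between Hhip and Ptch1 0.30 and 0.38.

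Of the 36 matrix and adhesion genes in the files 32 passed in both gated and subepithelial cells, of which 15 were higher and 12 lower, where 13.4% of all such genes were higher and 23.9% lower. Relative to all other cells 10 of 25 were higher and 2 lower, where 10.8% and 13.9% of all such genes were. The list's median differences were 0.10 and 0.22. Ncam1, a neural cell adhesion molecule, was at 8.84 and 7.77 UMIs per 10000 in gated cells, 1.84 and 2.45 in subepithelial cells and 3.57 and 3.86 in all others (1.28 ± 0.31 and 0.86 ± 0.19, limma, adjusted p = 0.0010 and 0.0068). Tnc, tenascin C of the villus matrix, was at 3.50 and 3.73 against 12.3 and 12.6 in subepithelial cells (−1.10 ± 0.06, limma, adjusted p = 0.0016) and 3.30 and 4.64 in all others (0.22 ± 0.26, adjusted p = 0.28). Col4a5, a basement membrane collagen chain, was at 0 and 0.0418 against 2.10 and 2.12, having passed only through the subepithelial cells. Mfap5, an elastic microfibril protein, was at 3.25 and 4.31 in gated cells against 0.0769 and 0.392 in subepithelial cells (0.99 ± 0.03, limma, adjusted p = 7.6e-04). Mfap4, another such protein, was at 11.3 and 5.53 against 2.13 and 2.62 (0.91 ± 0.59, 1.33 and 0.49 in the libraries, limma, adjusted p = 0.014). Neither was called against all other cells (limma, adjusted p = 0.055 and 0.91), but with at least 5 markers Mfap4 was called lower than there (−0.66, adjusted p = 0.036, with 0.036 to 0.92 over the alternatives). Within the gate Mfap5 and Mfap4 stood lowest at 6 or 7 markers in both libraries, at 0 and 1.68 for Mfap5 and at 1.10 and 2.83 for Mfap4, and Mfap4 was not called against subepithelial cells with 5 markers (0.30, adjusted p = 0.24, with 0.0031 to 0.24 over the alternatives).

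Of the 32 secreted factors in the files 23 passed in both gated and subepithelial cells, of which 6 were higher and 7 lower, where 13.4% of all such genes were higher and 23.9% lower. Against all others 10 of 25 were higher and 3 lower, where 10.8% and 13.9% of all such genes were. With at least 5 markers 8 of 25 were higher and 7 lower there (12.4% and 19.7% of all such genes), and with Pdgfra at 0, 9 of 22 were lower than in subepithelial cells (22.0%). The list's median differences with the gate as set were −0.05 and 0.07. Bmp5 and Bmp7, bone morphogenetic proteins of the subepithelial layer, were low in gated cells. Bmp5 was at 1.43 and 1.46 UMIs per 10000 against 8.49 and 9.56 in subepithelial cells (−1.47 ± 0.07, limma, adjusted p = 4.0e-04) and above the 0.599 and 0.874 of all others (0.36 ± 0.09, adjusted p = 0.025, with 0.014 to 0.092 over the alternatives and the call lost without the filter and after thinning). Bmp7, which passed only through the subepithelial cells, was at 0 and 0.0731 against 4.20 and 3.29. Sfrp1 was at 17.3 and 15.0, above the 1.51 and 4.22 of subepithelial cells (1.91 ± 0.54, limma, adjusted p = 0.0010) and not called against the 18.1 and 22.3 of all others (−0.20 ± 0.26, adjusted p = 0.51). With at least 5 markers Sfrp1 was called lower than in all others (−0.58, adjusted p = 0.043, with 0.043 to 0.61 over the alternatives). Igfbp5 was at 28.1 and 24.02 against 13.5 and 6.52 in subepithelial cells (1.68 ± 0.07, limma, adjusted p = 7.6e-04) and 11.4 and 12.97 in all others (1.08 ± 0.35, adjusted p = 0.0056). Il33, an alarmin cytokine, was at 2.32 and 3.52 against 0.150 and 0.377 (0.88 ± 0.08, limma, adjusted p = 7.2e-04) and 1.83 and 1.76 (0.31 ± 0.18, 0.18 and 0.44 in the libraries, adjusted p = 0.030). The cells with 5 or more markers did not share the calls of Igfbp5 and Il33 against all others, with 0.10 and −0.10 and adjusted p of 0.60 and 0.45 (0.0023 to 0.60 and 0.0025 to 0.45 over the alternatives). Igfbp5 was at 33.3 and 32.02 in the cells just outside the gate.

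Among genes called in both comparisons, ranked by the smaller of the 2 differences, those highest in gated cells were Igfbp5, Ckb, Tes, Adamdec1 and Ncam1, and those lowest were Phlda1, Col1a2, Marcks, Ggt5 and Dusp1. Adamdec1, a metalloprotease of lamina propria cells, was at 117 and 98.7 UMIs per 10000 in gated cells, 50.1 and 57.6 in subepithelial cells and 51.3 and 69.8 in all others (0.90 ± 0.29 and 1.61 ± 0.68, limma, adjusted p = 0.017 and 0.0046). With 5 or more markers its difference from subepithelial cells was 0.76 and not called (adjusted p = 0.060, with 0.0013 to 0.11 over the alternatives). Marcks, a membrane-bound substrate of protein kinase C that binds actin, was at 1.18 and 1.60 against 6.24 and 6.74 and 2.73 and 3.46 (−1.08 ± 0.06 and −0.43, limma, adjusted p = 6.2e-04 and 0.018). Col1a2 was at 29.6 and 24.1 against 47.2 and 39.6 and 65.1 and 46.4 (−0.62 ± 0.03 and −0.75 ± 0.06, limma, adjusted p = 0.0020 and 0.0029). The gated cells were thus lowest for Col1a2 in both libraries, yet it was still detected in 97.7% and 99.4% of them. Col1a1, the other chain of type I collagen, was not called against subepithelial cells (−0.28 ± 0.23, limma, adjusted p = 0.096) and was lower than in all others (−0.63 ± 0.02, adjusted p = 0.012). Phlda1 (−0.72 ± 0.08 and −0.67 ± 0.08), Ggt5 (−0.64 ± 0.14 and −0.37 ± 0.18) and the phosphatase gene Dusp1 (−0.35 ± 0.05 and −0.66 ± 0.03) were lower in both comparisons by limma, with adjusted p between 0.0014 and 0.038. Ggt5 differed from all other cells by −0.24 in library 1 and −0.49 in library 2, and that call was lost without the mean trend, without the filter and after thinning (adjusted p of 0.0050 to 0.10 over the alternatives). The call of Dusp1 against subepithelial cells was lost without the filter, with log2 of mean levels and after thinning (0.0060 to 0.0897 over the alternatives).

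**Figure D4:**
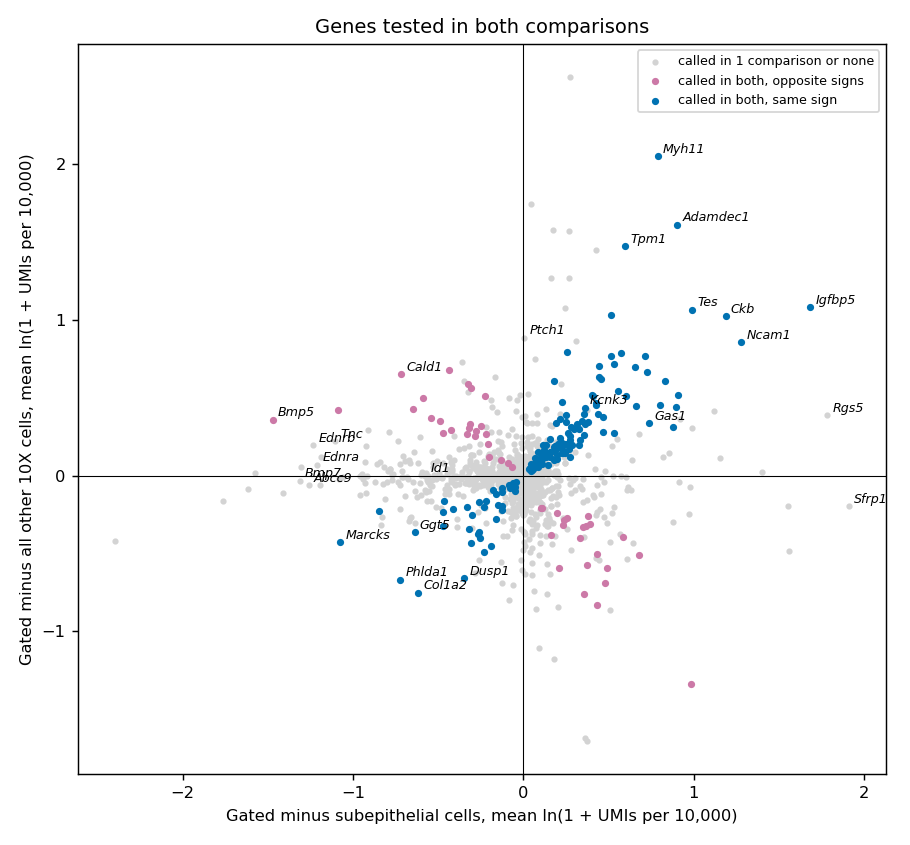
Difference of gated cells from subepithelial cells (horizontal axis) against their difference from all other 10X cells (vertical axis), in mean natural log value over 2 libraries, for 1544 genes tested in both. Blue genes were called in both with 1 sign (115 higher, 38 lower), purple genes with opposite signs (47), and the 2 axes share the gated cells. Ednrb, Ednra, Bmp7 and Abcc9 lie far left near 0 on the vertical axis, and Myh11 and Adamdec1 lie at the top right.

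Markers of other cell types were checked in the gated cells. Of 11 genes of vascular mural cells (pericytes and vessel muscle), Notch3, Vtn and Gja4 were at 0 in both libraries, and in library 1 Abcc9, Cox4i2 and Steap4 were also at 0. A count of 0 allows up to 6.82% and 1.67% of the gated cells of libraries 1 and 2 to hold a UMI. Notch3, Vtn and Gja4 were detected in at most 2.16% of subepithelial and 1.71% of all other cells of a library, so their absence does not set the gated cells apart. The list's summed level ran from 0 to 102.5 UMIs per 10000 over gated cells of library 1 and from 0 to 82.5 in library 2, most of it Rgs5, against ranges of 0 to 62.4 and 0 to 91.8 in subepithelial cells and 0 to 108.4 and 0 to 171.6 in all others. Cspg4, the NG2 proteoglycan of that list, was at 1.30 and 0.925 in gated cells. Mcam of the same list, an adhesion molecule of vessel and muscle cells, was detected in 22.7% and 27.8% of gated cells. It was at 0.716 and 0.831 against 0.0760 and 0.0940 in subepithelial cells and 0.0132 and 0.0601 in all others (0.28 ± 0.04 from subepithelial cells, limma, adjusted p = 7.6e-04), and it passed the filter against all others only through the gated cells. Of 3 genes of the list that passed in both gated and subepithelial cells 2 were higher (Mcam and Rgs5) and 1 lower (Cspg4), where 13.4% of all such genes were higher and 23.9% lower, and of 2 that passed against all others 1 was higher (Cspg4), where 10.8% of all such genes were. Kit, the defining gene of interstitial cells of Cajal, was at 0, and so were the glial genes Sox10, Gfap, Kcna1 and Cdh19, the leukocyte genes Tyrobp, Cd3e, Coro1a, Laptm5 and Rac2, the endothelial genes Emcn, Egfl7 and Cldn5 and the mesothelial genes Msln, Upk3b and Lrrn4. The 2 members of each list with the highest share in gated cells included Gpm6b (1.13 and 0.904), Etv1 (0.446 and 0.414), Esam (0.811 and 0.923), Ecscr (0.433 and 0.427), Lgals4 (0.137 and 0.0925) and Bcam (0.0611 and 0.0784). Of the others, Ano1, Cd74, Lyz2 and Krt19 were at 0.0631 UMIs per 10000 or less. Of the endothelial list, Esam was detected in 15.9% and 29.4% of gated cells against at most 0.719% of both other groups, while Pecam1 was detected in 1 of 44 and 2 of 180 gated cells and Cdh5 in 0 and 1.

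Stress genes are known to be induced by tissue digestion. The 12 genes of this list summed to 119 and 76.5 UMIs per 10000 in gated cells, 57.2 and 72.3 in subepithelial cells and 147.9 and 155.1 in all others. The ranges over cells overlapped widely (1.29 to 431.6 and 1.85 to 415 in gated cells, 0 to 576.1 and 0 to 675.8 in subepithelial cells, 0 to 1097.8 and 0 to 1250.8 in all others). All 12 passed in every group, and 2 were higher and 0 lower by limma against subepithelial cells (7 and 0 at an unadjusted p of 0.05), where 13.4% of all such genes were higher and 23.9% lower. Under each stricter gate 0 were called against subepithelial cells (1 to 3 higher unadjusted). Against all others 0 were higher and 3 lower (0 and 6 unadjusted), where 10.8% and 13.9% of all such genes were, and with Pdgfra at 0, 8 were lower, where 17.4% of all such genes were. The list's median differences were 0.45 and −0.33, and with Pdgfra at 0 they were 0.09 and −0.60. Jun (9.93 and 6.44) and Junb (23.0 and 13.1) were detected in the largest shares of gated cells over both libraries pooled, although in library 1 Hspa1a was detected in more (79.5%) than Junb (77.3%), and library 1 was above library 2 for both. The part of this level in the differences of the gated cells was not tested. The 6 fibroblast genes summed to 116.8 and 103.02 UMIs per 10000 in gated cells (13.3 to 248.1 and 16.0 to 363.9), 113 and 113.4 in subepithelial cells (34.2 to 487.3 and 6.46 to 564.5) and 235.9 and 185.4 in all others (0 to 890.6 and 0 to 1048.5).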

How the data were processed

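Sorted gp38+ stromal cells of the small intestine were profiled as 2 10X Genomics libraries. The 739 columns of Smartseq2 cells, which hold values corrected by integration, were not used. Per the labels, reads were aligned to mm10 (GRCm38) with Cell Ranger 3.1.0 and filtered with Seurat. The deposited 10X values are natural log values, ln(1 + UMIs per 10000), scaled by the authors to each cell's total. The smallest value above 0 in a cell was taken as 1 UMI to recover UMIs and totals, and 100% of values above 0 were whole multiples of it (tolerance 0.01). The copy of the table read here holds 3891 genes, and 1 further row that ends early was left out.

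The members and gene lists were chosen with earlier results of these data known. Since the values are logs, no count model was used. Mean natural log values per library and cell group were tested with limma 3.58.1 (R 4.3.3; mean trend, library as a block, Benjamini-Hochberg adjustment at 0.05), with 3 groups in 1 fit and genes detected in at least 5% of the cells of either group compared. The genes that define the groups were not tested, which leaves 2 libraries as the replicates. The procedure was tested on simulated data. Genes were named by rule: the 5 members of each list with the largest absolute difference from subepithelial cells, the 2 genes of each other cell type's list detected in the largest share of gated cells, and at most 5 genes per direction called in both comparisons with the same sign in both libraries. Results for some genes of these lists are not reported here. Shares have exact Clopper-Pearson 95% intervals, a count of 0 was limited at 3 counts, and thinning to 2000 UMIs used seed 7. Alternatives were other marker minimums, Pdgfra at 0, Sox6 not used, log2 of mean levels with pseudocounts of 0.1 and 1, thinning, no filter, no mean trend, no block, and leaving out the cells of greatest depth or 1 library. Scripts ran in Python 3.11.15 with pandas 2.3.3 and numpy 2.4.6 for tables, scipy 1.17.1 for intervals and matplotlib 3.10.9 for plots.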

Additional observations from a re-analysis of the deposited data

How the results depend on the processing

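The number of genes called against subepithelial cells (725 of 1719 tested) ranged from 487 to 735 over the alternatives, and that against all other cells (450 of 1597) from 263 to 584. The 487 were called after thinning, of 1044 genes tested (46.6%), and against all other cells 263 were called without the filter on low values, of 3795 tested (6.93%), and 285 without the mean trend (17.8%). The labels number the replicates, and the library block holds the 3 cell groups of 1 library together. With no replicate block, 698 and 434 genes were called, and of the named genes 1 call changed, that of Mfap5 against all other cells, which was then called. Leaving out 1 library leaves no test, so only the signs of the differences were compared. The share of gated cells rests on the marker minimum: in library 1 it was 3.34% with at least 2 markers, 0.982% with 4, 0.393% with 5 and 0.667% with Pdgfra at 0, and in library 2 it was 2.82%, 0.788%, 0.537% and 0.530%. With log2 of mean levels plus 0.1 the median difference of all genes from all other cells moved to −0.11.

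Over the named genes that passed the filter in both groups compared, 593 tests under an alternative kept their sign and their side of the threshold, 45 were no longer called, 9 became called and 12 changed sign, and without 1 library 129 differences kept their sign and 3 changed it. Besides the changes given in the text, without the filter the calls of Cald1, Id4, Adamdec1 and Mfap4 against subepithelial cells and of Cald1, Id4, Sox4, Ncam1, Bmp5, Il33, Adamdec1 and Marcks against all others were lost. Without the mean trend those of Adamdec1 and Mfap4 against subepithelial cells and of Cald1, Id4 and Il33 against all others were lost, and Id3 became called lower than in all others. After thinning the call of Sox4 against subepithelial cells was lost, and Mfap5 became called higher than in all others. With at least 4 markers the calls of Cald1 and Mfap4 against subepithelial cells and of Sox4 against all others were lost. With Pdgfra at 0 the calls of Cald1, Sox4 and Mfap4 against subepithelial cells and of Igfbp5 and Il33 against all others were lost. With log2 of mean levels plus 0.1 the call of Il33 against all others was lost. Against all other cells, those that changed sign were Id1 (0.0014 without the cells of greatest depth, and −0.048 to 0.042 without 1 library), Rgs5 (−0.23 with 5 markers), Gucy1b1 (−0.057 to 0.013 without 1 library), Tnc (−0.11 and −0.095 with log2 of mean levels plus 0.1 and plus 1, −0.090 with 5 markers and −0.14 with Pdgfra at 0), Mfap5 (−0.025 with 5 markers and −0.15 with Pdgfra at 0), Mfap4 (−0.27 to 0.18 without 1 library) and Il33 (−0.097 with 5 markers and −0.12 with Pdgfra at 0). Against subepithelial cells it was Ptch1 (−0.056 after thinning and −0.0056 without the cells of greatest depth). The cause was not tested. The 44 gated cells of library 1 limit the precision there.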
